A study of Mus musculus with 5 samples.

Results

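The genes described are 10 endothelial genes, *Pecam1*, *Cdh5*, *Kdr*, *Flt1*, *Tek*, *Tie1*, *Emcn*, *Vwf*, *Esam* and *Eng*, measured in marrow stromal cells sorted from mouse femurs. They were chosen by name, and all 10 were found among the 30046 features of the count table. The libraries are 5 bulk RNA-seq libraries of GFP+tdTomato+ cells from postnatal day 21, with tamoxifen given once at E12.5. The Dlx5CE-E12.5 group (3 libraries) carries Cxcl12(GFP/+); Dlx5(CreER/+); R26R(tdTomato/+), and the Fgfr3CE-E12.5 group (2 libraries, numbered replicates 2 and 3 in the labels) carries Cxcl12(GFP/+); Fgfr3-iCreER; R26R(tdTomato/+). Cells of both groups therefore had GFP in place of 1 *Cxcl12* allele and a tdTomato reporter that Cre switches on. *Dlx5-creER* marks perichondrial cells at the pulse, *Fgfr3-iCreER* (an artificial chromosome transgene) marks fetal chondrocytes, and the comparison asks how the marrow stroma descended from each differs. Mice of a genotype were pooled, and the sort took GFP-high cells. An antibody gate against endothelial or blood cells is not given for this sort in the sources used here. The paper's flow cytometry of the same genotypes at this age was restricted to cells negative for CD31, CD45 and an erythroid marker. CD31 is the protein of *Pecam1*. Whether the sort for sequencing used that gate is not stated.

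Endothelial cells line blood vessels, and in bone marrow they form arterioles and the sinusoids through which blood cells leave. The 10 genes encode junction and surface proteins (*Pecam1*, *Cdh5*, *Esam*, *Emcn*), receptors for vascular endothelial growth factors (*Kdr*, *Flt1*), the receptors Tie2 and Tie1 (*Tek*, *Tie1*), the clotting protein von Willebrand factor (*Vwf*), and endoglin (*Eng*), a co-receptor for TGF-beta and BMP ligands. Several are also known outside the vessel wall: *Pecam1* in leukocytes and platelets, *Vwf* in megakaryocytes, *Tek*, *Tie1* and *Esam* in haematopoietic stem cells, and *Eng* in marrow stromal cells, where its protein is the marker CD105. *Cdh5* is the member most closely tied to endothelial junctions.

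RefSeq promoter windows on GRCm38.p6 were found for 6 of the 10 genes. The 250 bases before the start are shown for *Eng*, the gene with the clearest difference, and for *Flt1* and *Tie1*, 2 receptors with fold changes of opposite sign, neither of them called. Endothelial promoters are known for ETS factor sites, and capitals mark the hexamers CGGAAG and AGGAAG, which share the core GGAA of those sites, on either strand. These windows are chr2:32646345-32646594 on the forward strand for *Eng*, chr5:147726012-147726261 on the reverse strand for *Flt1* and chr4:118489850-118490099 on the reverse strand for *Tie1*.
Eng: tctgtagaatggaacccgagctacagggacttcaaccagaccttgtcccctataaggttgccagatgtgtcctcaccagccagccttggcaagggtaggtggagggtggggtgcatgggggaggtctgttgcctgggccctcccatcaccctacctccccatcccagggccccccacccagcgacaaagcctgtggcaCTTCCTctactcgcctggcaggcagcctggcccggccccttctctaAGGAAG
Flt1: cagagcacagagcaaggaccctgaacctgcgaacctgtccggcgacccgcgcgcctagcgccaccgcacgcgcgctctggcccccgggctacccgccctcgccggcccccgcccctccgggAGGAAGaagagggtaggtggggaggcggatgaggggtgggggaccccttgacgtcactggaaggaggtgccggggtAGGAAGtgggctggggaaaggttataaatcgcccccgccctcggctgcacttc
Tie1: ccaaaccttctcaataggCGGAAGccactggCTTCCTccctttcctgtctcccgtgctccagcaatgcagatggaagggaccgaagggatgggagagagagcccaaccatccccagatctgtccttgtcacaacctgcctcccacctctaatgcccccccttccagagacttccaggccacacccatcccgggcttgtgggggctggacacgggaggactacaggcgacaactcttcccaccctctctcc
Each of the 3 windows, and that of *Emcn*, held 2 of these hexamers, while those of *Kdr* and *Tek* held 0. At least 1 hexamer was present in 39.2% of all 32851 windows in the table, and at least 2 in 11.3%. In *Eng* the hexamers begin 52 and 6 bases before the start. The RefSeq start of *Tie1* lies inside the gene span given below, which ends at 118490061, so most of its window does too.

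All 10 genes had counts in every library, but only *Eng* was abundant. Levels are given as normalized CPM, read counts scaled to library size and edgeR's TMM factors. Without *Eng*, the other 9 genes summed to 48.2, 39.0 and 25.2 CPM in Dlx5CE-E12.5 replicates 1 to 3 and to 39.3 and 49.0 CPM in Fgfr3CE-E12.5 replicates 2 and 3, so the groups overlapped. Adding *Eng* gave 255, 200.4 and 207 CPM against 125 and 106 CPM, and *Eng* made up 53.8% to 87.8% of that sum. In the same libraries, the stromal chemokine gene *Cxcl12* ran from 5802 to 22410 CPM. All 10 genes together took between 0.0116% and 0.024% of a library's counts. In a bulk library, fewer cells of a type and less RNA per cell cannot be told apart.

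**Figure D1:**
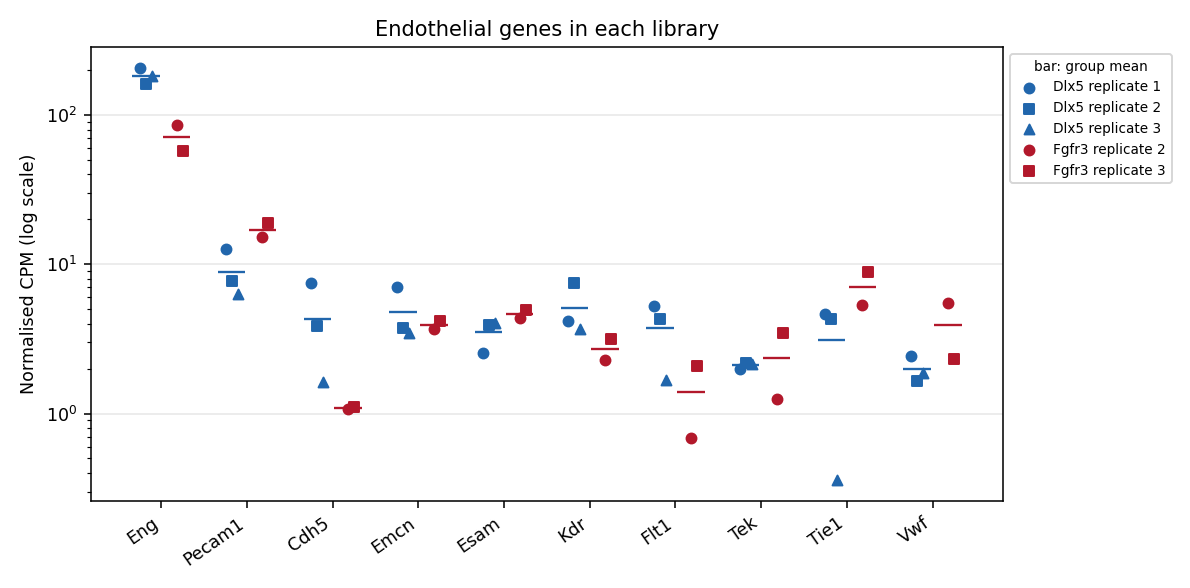
Normalised CPM (log scale) of the 10 endothelial genes in each library, with blue points for Dlx5CE-E12.5, red points for Fgfr3CE-E12.5 and a bar at each group's mean. *Eng* lies above every other gene in all 5 libraries, and the lowest point is *Tie1* in Dlx5CE-E12.5 replicate 3, at 0.358 CPM.

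Divided by exon length, *Eng* was also the highest of the 10, at 45.3 ± 5.63 RPKM (normalized CPM per kilobase of exon; SD, n = 3) in Dlx5CE-E12.5 cells and 17.6 ± 4.90 RPKM (SD, n = 2) in Fgfr3CE-E12.5 cells. *Pecam1* came next in both groups, at 1.42 ± 0.535 RPKM (n = 3) and 2.74 ± 0.432 RPKM (n = 2). In Dlx5CE-E12.5 cells the order below it was *Esam*, *Cdh5*, *Emcn*, *Tie1*, *Kdr*, *Tek*, *Flt1* and *Vwf*, and in Fgfr3CE-E12.5 cells it was *Esam*, *Tie1*, *Emcn*, *Tek*, *Kdr*, *Cdh5*, *Vwf* and *Flt1*. The library ranges of 7 of the 9 neighbouring pairs in the first order and 6 of 9 in the second overlapped, so these neighbours did not differ beyond their spread. *Eng* and *Pecam1* were separated in both groups. By group mean, *Cdh5* was at 1.02 ± 0.697 RPKM in Dlx5CE-E12.5 cells, above *Emcn*. In Fgfr3CE-E12.5 cells it was below *Kdr*, at 0.259 ± 0.0053 RPKM, and in both pairs the library ranges overlapped.

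The lineages were compared gene by gene with edgeR's quasi-likelihood test, and calls needed an adjusted p below 0.05 together with a log2 fold change of more than 1 in either direction. Log2 fold changes are Fgfr3CE-E12.5 minus Dlx5CE-E12.5, so positive values are higher in Fgfr3CE-E12.5 cells. Only *Eng* and *Pecam1* reached a CPM of 10 in at least 2 libraries, the study's filter. Of these, *Eng* was called, higher in Dlx5CE-E12.5 cells, as were 13.1% of the 10088 genes tested, and *Pecam1* was not, while 16.4% of genes tested were higher in Fgfr3CE-E12.5 cells, 29.5% in either direction. The other 8 genes were tested with all 13225 genes that reached a CPM of 1 in at least 2 libraries. In that fit *Cdh5* was called, higher in Dlx5CE-E12.5 cells (12.9% of genes tested), and the other 7 were not called in either direction (16.6% of genes tested were higher in Fgfr3CE-E12.5 cells). The median log2 fold change of the 10 genes in that fit was -0.08, against 0.01 for all genes tested.

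**Figure D2:**
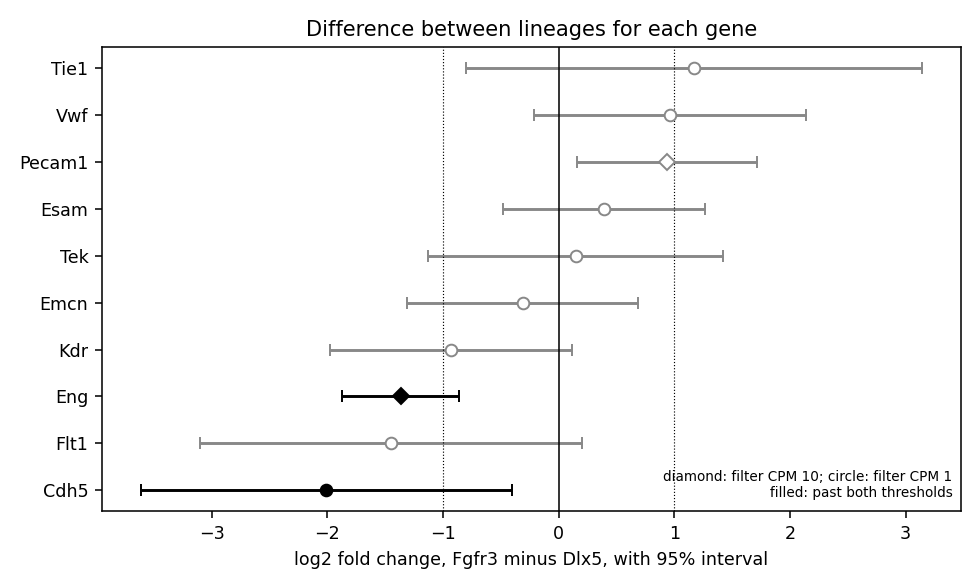
Log2 fold change (Fgfr3CE-E12.5 minus Dlx5CE-E12.5) of each gene with its 95% interval from the edgeR fit. Filled symbols passed both thresholds, diamonds come from the fit at a CPM of 10 and circles from the fit at a CPM of 1, and dotted lines mark a log2 fold change of 1 in either direction. Only *Eng*, *Cdh5* and *Pecam1* have intervals that leave out 0.

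*Eng* (ENSMUSG00000026814; GRCm38 chromosome 2, 32646595 to 32682669, forward strand) had 6340, 3426 and 4576 counts in the Dlx5CE-E12.5 libraries and 5240 and 3622 counts in the Fgfr3CE-E12.5 libraries. As normalized CPM these are 207, 161 and 182 against 85.2 and 57.2, and every Dlx5CE-E12.5 library lay above both Fgfr3CE-E12.5 libraries. The group means were 183 ± 22.8 CPM (SD, n = 3) and 71.2 ± 19.8 CPM (SD, n = 2), and *Eng* was 2.58-fold higher in Dlx5CE-E12.5 cells. Its log2 fold change was -1.37 (standard error 0.21, 95% interval -1.87 to -0.86, adjusted p = 0.0022, edgeR). With any 1 library left out it stayed called, at -1.61 to -1.05. A test of whether the change exceeded 2-fold was not passed (adjusted p = 0.0929, edgeR's glmTreat). *Fpgs*, on the opposite strand, covers 1.51% of the exon bases of *Eng*. Of 10 marrow stroma genes, 7 were also called higher in Dlx5CE-E12.5 cells, among them *Cxcl12*, *Kitl* and *Adipoq*, and 1, *Foxc1*, was higher in Fgfr3CE-E12.5 cells. Over all genes tested at a CPM of 10, these shares were 13.1% and 16.4%. The summed level of the marrow stroma list ran from 29760 to 30990 CPM in Dlx5CE-E12.5 cells against 12270 and 8232 CPM. That sum is mostly *Cxcl12*, at 21250 to 22410 CPM against 8068 and 5802 CPM, and its locus carries the GFP used for the sort. The part of the marrow stroma genes' cells in the *Eng* difference was not tested.

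Of the junction genes, *Cdh5* (VE-cadherin, the adhesion protein of endothelial junctions; ENSMUSG00000031871, chromosome 8, 104101625 to 104144511) had 228, 82 and 41 counts in the Dlx5CE-E12.5 libraries and 66 and 70 in the Fgfr3CE-E12.5 libraries. These are 7.44, 3.86 and 1.63 CPM against 1.07 and 1.10 CPM. The Dlx5CE-E12.5 libraries were all higher but spread over 4.56-fold, while the Fgfr3CE-E12.5 libraries differed by 1.03-fold. *Cdh5* was 4.02-fold higher in Dlx5CE-E12.5 cells (log2 fold change -2.01, standard error 0.68, 95% interval -3.61 to -0.41, adjusted p = 0.0485, edgeR). The call depended on single libraries. The adjusted p was 0.1 without Dlx5CE-E12.5 replicate 1, where the log2 fold change was -1.35, and 0.0921 without Dlx5CE-E12.5 replicate 2, 0.148 without Fgfr3CE-E12.5 replicate 2 and 0.16 without Fgfr3CE-E12.5 replicate 3. Over all 17 alternatives it ran from 0.00892 to 0.212, and 9 of them kept the call, of which 2 (the filter at a CPM of 1 and no fold change threshold) leave its fit as it is.

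*Pecam1* (CD31; ENSMUSG00000020717, chromosome 11, 106654217 to 106750628) had 387, 163 and 158 counts in the Dlx5CE-E12.5 libraries and 932 and 1201 in the Fgfr3CE-E12.5 libraries. At 12.6, 7.68 and 6.28 CPM against 15.2 and 18.9 CPM, every Fgfr3CE-E12.5 library was the higher. The log2 fold change was 0.94 (standard error 0.33, 95% interval 0.16 to 1.72, adjusted p = 0.0504, edgeR), which missed both thresholds by little. Without Dlx5CE-E12.5 replicate 1, the highest of its group, *Pecam1* was called at 1.29 (adjusted p = 0.00899, edgeR). At a CPM of 10, 16.4% of all genes tested were called higher in Fgfr3CE-E12.5 cells. The 10 pan-leukocyte genes, among them *Ptprc* (CD45), all were. Their summed level was 461, 421 and 375 CPM in the Dlx5CE-E12.5 libraries and 1205 and 2571 CPM in the Fgfr3CE-E12.5 libraries, with no gene of the list at 0 throughout. Their part in the *Pecam1* value was not tested.

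*Esam* and *Emcn*, the other surface proteins, showed no called difference. *Esam*, an adhesion molecule of endothelial tight junctions and platelets (ENSMUSG00000001946, chromosome 9, 37528078 to 37538319), was at 2.54, 3.91 and 4.06 CPM in Dlx5CE-E12.5 cells and 4.34 and 4.97 CPM in Fgfr3CE-E12.5 cells. The Fgfr3CE-E12.5 libraries were both higher, by little more than the highest Dlx5CE-E12.5 library, and the log2 fold change was 0.39 (95% interval -0.48 to 1.26, adjusted p = 0.429, edgeR). *Emcn* (endomucin, a sialomucin of sinusoidal and other venous endothelium; ENSMUSG00000054690, chromosome 3, 137341067 to 137432185) was at 7.08, 3.77 and 3.46 CPM against 3.67 and 4.15 CPM. The groups overlapped, and its log2 fold change of -0.31 (95% interval -1.31 to 0.69, adjusted p = 0.583, edgeR) turned to 0.092 without Dlx5CE-E12.5 replicate 1.

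These genes did not keep one proportion to each other. A ratio of counts within a library does not depend on how libraries are scaled. There were 1.70, 1.99 and 3.85 *Pecam1* counts per *Cdh5* count in Dlx5CE-E12.5 replicates 1 to 3 and 14.1 and 17.2 in Fgfr3CE-E12.5 replicates 2 and 3. *Emcn* counts per *Cdh5* count were 0.952, 0.976 and 2.12 against 3.42 and 3.76, and *Esam* counts per *Cdh5* count were 0.342, 1.01 and 2.49 against 4.04 and 4.50. For each of these 3 ratios both Fgfr3CE-E12.5 libraries lay above all Dlx5CE-E12.5 libraries. All 3 divide by *Cdh5*, itself lower in both Fgfr3CE-E12.5 libraries, so they are not separate observations. Of single genes tested at a CPM of 1, 66.6% separated the groups in one direction or the other. Effects of the sequencing on single genes, which differed by lineage per the methods, stay in such ratios. The ratios were picked after the counts had been seen, so they are given without a test. *Eng* counts per *Cdh5* count overlapped between the groups, at 27.8 to 112 against 51.7 and 79.4.

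Of the growth factor receptors, *Kdr* (VEGFR2, the main signalling receptor for VEGF-A; ENSMUSG00000062960, chromosome 5, 75932827 to 75978458) had 128, 158 and 93 counts in the Dlx5CE-E12.5 libraries and 140 and 200 in the Fgfr3CE-E12.5 libraries. The levels were 4.18, 7.44 and 3.70 CPM against 2.28 and 3.16 CPM, and the groups did not overlap. The log2 fold change was -0.93 (95% interval -1.98 to 0.12, adjusted p = 0.132, edgeR). *Flt1* (VEGFR1, which binds VEGF-A, VEGF-B and placental growth factor; ENSMUSG00000029648, chromosome 5, 147561604 to 147726011) was at 5.28, 4.28 and 1.67 CPM against 0.683 and 2.10 CPM. Here Dlx5CE-E12.5 replicate 3 lay under Fgfr3CE-E12.5 replicate 3, and the log2 fold change of -1.45 (95% interval -3.10 to 0.20, adjusted p = 0.135, edgeR) was within the spread of the libraries. *Flt1* had 42 counts in the lowest library.

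*Tek* (Tie2, the angiopoietin receptor; ENSMUSG00000006386, chromosome 4, 94739289 to 94874976) was the steadiest gene in Dlx5CE-E12.5 cells, at 1.99, 2.17 and 2.15 CPM. The Fgfr3CE-E12.5 libraries lay on either side of these, at 1.25 and 3.47 CPM. Its log2 fold change was 0.15 (95% interval -1.13 to 1.42, adjusted p = 0.846, edgeR), and it was -0.74 without Fgfr3CE-E12.5 replicate 3 and 0.73 without Fgfr3CE-E12.5 replicate 2.

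*Tie1*, the partner receptor of Tie2 (ENSMUSG00000033191, chromosome 4, 118471191 to 118490061), had 142, 91 and 9 counts in the Dlx5CE-E12.5 libraries and 328 and 560 in the Fgfr3CE-E12.5 libraries. At 4.63, 4.28 and 0.358 CPM against 5.33 and 8.84 CPM, both Fgfr3CE-E12.5 libraries were higher, and the Dlx5CE-E12.5 libraries spread over 12.9-fold. The 9 counts have an exact Poisson 95% interval of 4.12 to 17.1, so counting error alone does not span the gap to the other Dlx5CE-E12.5 libraries. This interval covers counting error only, since amplified reads without molecular identifiers are not independent molecules. The log2 fold change was 1.17 (standard error 0.83, 95% interval -0.80 to 3.14, adjusted p = 0.293, edgeR) and 0.64 without Dlx5CE-E12.5 replicate 3 (adjusted p = 0.283, edgeR). *Tie1* counts per *Tek* count were 2.33, 1.98 and 0.167 against 4.26 and 2.54.

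*Vwf* (ENSMUSG00000001930, chromosome 6, 125546774 to 125686679) had 74, 35 and 47 counts in the Dlx5CE-E12.5 libraries and 341 and 147 in the Fgfr3CE-E12.5 libraries. The levels were 2.41, 1.65 and 1.87 CPM against 5.54 and 2.32 CPM, so only Fgfr3CE-E12.5 replicate 2 stood above the Dlx5CE-E12.5 libraries. The log2 fold change was 0.97 (standard error 0.50, 95% interval -0.21 to 2.14, adjusted p = 0.157, edgeR), and it was 0.23 without that library and 1.48 without Fgfr3CE-E12.5 replicate 3. Megakaryocyte and platelet genes stood highest in the same library. Their summed level over 12 genes was 121 CPM in Fgfr3CE-E12.5 replicate 2, 77.4 CPM in replicate 3 and 18.1 to 24.2 CPM in the Dlx5CE-E12.5 libraries. *Itgb3*, which was higher in replicate 3, made up much of these sums, and without it, a choice made after the values were seen, they were 75.1 CPM, 18.1 CPM and 8.71 to 9.98 CPM. No gene of the list was at 0 in every library.

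*Pf4* (platelet factor 4) was at 22.6 CPM in Fgfr3CE-E12.5 replicate 2 and 2.37 CPM in replicate 3, against 1.41 to 1.83 CPM in Dlx5CE-E12.5 cells. *Itga2b* (CD41) was at 17.2 and 6.69 CPM against 1.86 to 3.34 CPM. Of the list's 12 genes, 7 were tested at a CPM of 1 and 4 of these were called higher in Fgfr3CE-E12.5 cells, *Itga2b*, *Gp9*, *Pf4* and *Itgb3*, with a median log2 fold change of 2.17 against 0.01 for all genes tested. Of all genes tested at that filter, 16.6% were called higher in Fgfr3CE-E12.5 cells. Looked at after their values were seen, *Ppbp* and *Mmrn1* (multimerin 1, of platelets and endothelium) had the same high library, at 12.4 and 5.38 CPM in Fgfr3CE-E12.5 replicate 2 and 0.631 and 1.09 CPM in replicate 3. The glycoprotein gene *Gp9* and the integrin gene *Itgb3* were higher in replicate 3, while the glycoprotein genes *Gp1ba* and *Gp5* were higher in replicate 2. The part of these genes' cells in the *Vwf* value was not tested.

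**Figure D3:**
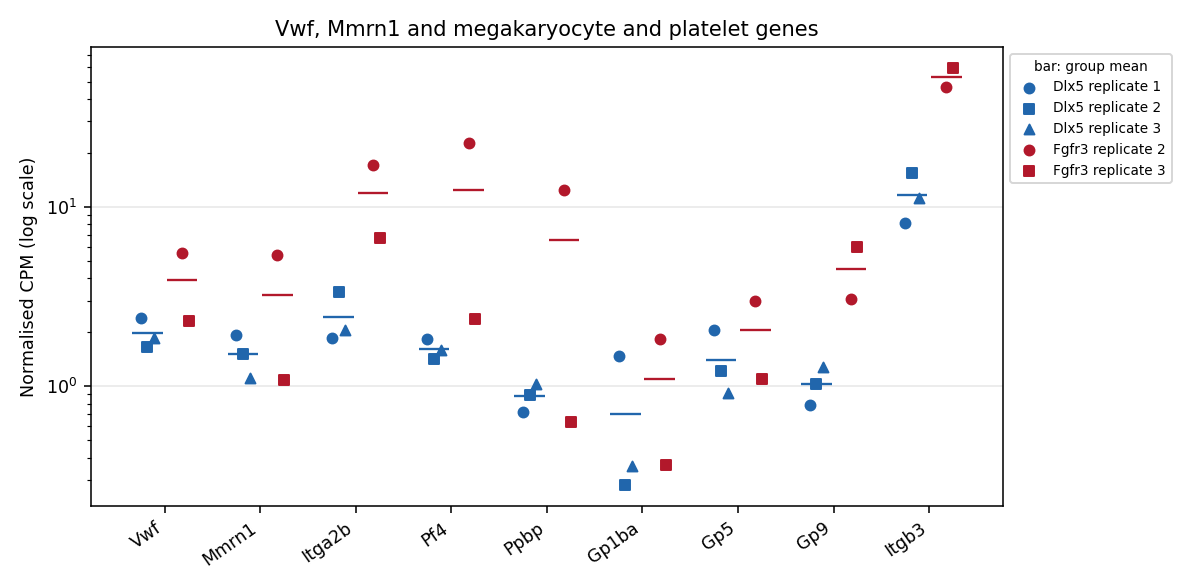
Normalised CPM (log scale) of *Vwf*, *Mmrn1* and 7 genes of the megakaryocyte and platelet list in each library, with blue points for Dlx5CE-E12.5, red points for Fgfr3CE-E12.5 and a bar at each group's mean. For *Vwf*, *Mmrn1*, *Itga2b*, *Pf4*, *Ppbp*, *Gp1ba* and *Gp5*, Fgfr3CE-E12.5 replicate 2 (red circle) is the highest library, and for *Gp9* and *Itgb3* it is replicate 3 (red square).

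Within a group, the endothelial genes rose and fell by library only in part together. In Dlx5CE-E12.5 cells, replicate 1 had the highest level of 7 of the 10 genes and replicate 3 the lowest of 6. In Fgfr3CE-E12.5 cells, replicate 3 was the higher for 8 genes, all but *Eng* and *Vwf*. How often these libraries stood highest or lowest over all genes was not counted, so these counts may not be particular to the endothelial genes. Across the lineages, 3 genes (*Pecam1*, *Tie1* and *Esam*) were higher in every Fgfr3CE-E12.5 library and 3 (*Eng*, *Cdh5* and *Kdr*) in every Dlx5CE-E12.5 library. Such separation was seen for 66.6% of all genes tested at a CPM of 1, which is 34.5% with Fgfr3CE-E12.5 libraries higher and 32.1% with Dlx5CE-E12.5 libraries higher.

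Of 31 other endothelial surface and junction genes tested at a CPM of 1, 5 were higher in Dlx5CE-E12.5 cells, 1 was higher in Fgfr3CE-E12.5 cells and 25 were not called, with a median log2 fold change of -0.07. Over all genes tested these shares were 12.9% and 16.6%. The 5 were *Esm1*, *Adgrf5*, *Cyyr1*, *Calcrl* and *Ptprb*, and the other was *Notch4*. *Ptprb* (VE-PTP, the phosphatase that acts on Tie2 and VE-cadherin) was at 5.74, 2.45 and 3.14 CPM in Dlx5CE-E12.5 cells and 0.358 and 0.915 CPM in Fgfr3CE-E12.5 cells, with a difference of -2.59 on the log2 scale (adjusted p = 0.0175, edgeR). *Notch4*, an endothelial Notch receptor, was at 0.0652, 0.659 and 0.438 CPM against 2.31 and 3.27 CPM (log2 fold change 2.86, adjusted p = 0.0253, edgeR).

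The most abundant gene of this list was *Esm1*, which encodes the secreted proteoglycan endocan. It was at 1179, 1208 and 1228 CPM in Dlx5CE-E12.5 cells and 343 and 161 CPM in Fgfr3CE-E12.5 cells (log2 fold change -2.26, adjusted p = 0.00161, edgeR). *S1pr1*, a receptor for sphingosine 1-phosphate, ran from 242 to 380 CPM and *Clec14a*, an endothelial lectin, from 81.1 to 156 CPM, and in neither was a difference called (adjusted p = 0.951 and 0.91, edgeR). *Cldn5* (claudin-5, another junction protein) was at 5.55, 7.68 and 3.30 CPM against 3.56 and 2.19 CPM (adjusted p = 0.14, edgeR). *Esm1*, *S1pr1* and *Clec14a* stood far above *Cdh5* (1.07 to 7.44 CPM), and which cells they came from was not tested.

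Of 11 endothelial transcription factors tested at a CPM of 1, 2 were higher in Fgfr3CE-E12.5 cells (*Gata2* and *Hey1*), 1 was higher in Dlx5CE-E12.5 cells (*Lyl1*) and 8 were not called, where 29.5% of all genes tested were called in either direction. *Hey1*, at 57.7 to 74.7 CPM in Dlx5CE-E12.5 cells against 195 and 145 CPM, stood far above *Cdh5* (1.07 to 7.44 CPM). *Gata2* was at 0.706 to 2.25 CPM against 9.57 and 11.5 CPM, and *Lyl1* at 11.53 to 17.45 CPM against 2.032 and 3.645 CPM. Which cells these called factors came from was not tested. *Ets1* and *Fli1*, ETS factors also used by blood cells, were at 106 to 110.0 and 29.3 to 33.9 CPM in Dlx5CE-E12.5 cells and at 148 to 176 and 40.0 to 45.1 CPM in Fgfr3CE-E12.5 cells. Their log2 fold changes were 0.58 and 0.41, under the fold change threshold (adjusted p = 0.0103 and 0.0624, edgeR). *Erg*, an ETS factor largely restricted to endothelium and looked at after its values were seen, stayed between 0.522 and 2.52 CPM with overlapping groups (adjusted p = 0.73, edgeR).

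The ligands and co-receptors of these receptors included the largest log2 fold change given here, that of *Vegfa*. Of 11 such genes tested at a CPM of 10, 2 were higher in Fgfr3CE-E12.5 cells (*Vegfa* and *Vegfb*) and 4 were not called. The 5 higher in Dlx5CE-E12.5 cells were *Angpt1*, *Angpt2*, *Nrp1*, *Nrp2* and *Bmpr2*. Over all genes tested at that filter, 16.4% were higher in Fgfr3CE-E12.5 cells and 13.1% in Dlx5CE-E12.5 cells. *Vegfa*, the ligand of *Kdr* and *Flt1*, was at 4.40, 8.48 and 12.5 CPM in Dlx5CE-E12.5 cells and 583 and 432 CPM in Fgfr3CE-E12.5 cells, with a difference of 5.91 on the log2 scale (SE 0.43, adjusted p = 0.000104, edgeR). *Angpt1*, the activating ligand of Tie2, was at 340.3, 357 and 303 CPM against 141 and 60.8 CPM, with a difference of -1.72 on the log2 scale (SE 0.35, adjusted p = 0.00629, edgeR). *Angpt2* was lower in Fgfr3CE-E12.5 cells as well, by a log2 fold change of -2.14 (adjusted p = 0.00135, edgeR).

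The co-receptors were abundant. *Nrp1* (neuropilin 1, which binds VEGF-A together with *Kdr*) was at 798, 741 and 705 CPM in Dlx5CE-E12.5 cells and 460 and 272 CPM in Fgfr3CE-E12.5 cells (log2 fold change -1.03, adjusted p = 0.0114, edgeR). *Nrp2* differed by -2.18 (adjusted p = 0.000132, edgeR). *Acvrl1* (ALK1, the receptor with which endoglin acts in endothelium) was at 42.0, 29.4 and 33.4 CPM against 22.2 and 38.1 CPM, and these groups overlapped (log2 fold change -0.21, adjusted p = 0.543, edgeR). *Gdf2*, which encodes the endoglin ligand BMP9, had no more than 13 counts in any library.

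**Figure D4:**
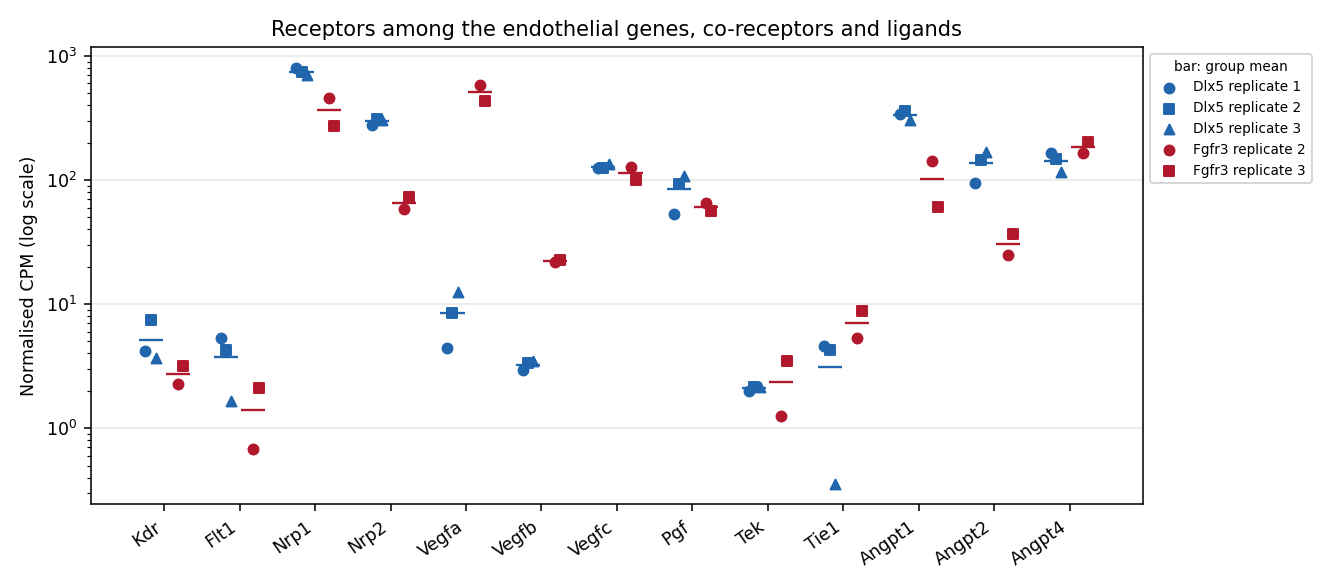
Normalised CPM (log scale) of the receptors *Kdr*, *Flt1*, *Tek* and *Tie1* beside their co-receptors and ligands in each library, with blue points for Dlx5CE-E12.5, red points for Fgfr3CE-E12.5 and a bar at each group's mean. The receptor genes stay under 10 CPM in all libraries, while *Vegfa* runs from 4.40 CPM in a Dlx5CE-E12.5 library to 583 CPM in an Fgfr3CE-E12.5 library.

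Markers of some other cells also differed between the lineages. Over all genes tested at a CPM of 1, 16.6% were higher in Fgfr3CE-E12.5 cells and 12.9% in Dlx5CE-E12.5 cells. The 10 neutrophil genes were all called higher in Fgfr3CE-E12.5 cells, with a summed level of 2475 to 3101 CPM in the Dlx5CE-E12.5 libraries and 7074 and 17380 CPM in the Fgfr3CE-E12.5 libraries. Of 9 macrophage genes tested at a CPM of 1, 4 were higher in Fgfr3CE-E12.5 cells and 1 (*Vcam1*, which marrow stroma also expresses) was higher in Dlx5CE-E12.5 cells. That list's sum, 3950 to 4924 CPM against 1623 and 946 CPM, is mostly *Vcam1*. Of 10 erythroid genes, 2 were higher in Dlx5CE-E12.5 cells, not far from the share over all genes. Their summed levels overlapped, at 18210 to 36950 CPM against 14470 and 21560 CPM. Of 10 mural genes (smooth muscle and pericytes), 4 were higher in Fgfr3CE-E12.5 cells and 2 in Dlx5CE-E12.5 cells. The mural sums overlapped as well, at 347 to 475 CPM against 345 and 457 CPM.

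**Figure D5:**
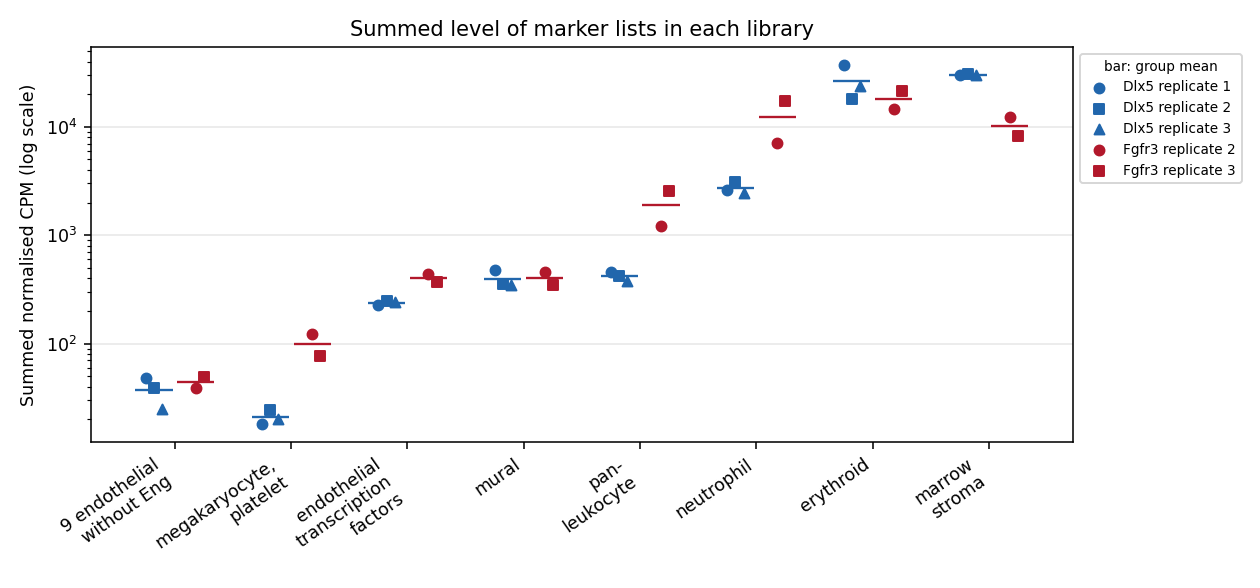
Summed normalised CPM (log scale) of the 9 endothelial genes without *Eng* and of 7 marker lists in each library, with blue points for Dlx5CE-E12.5, red points for Fgfr3CE-E12.5 and a bar at each group's mean. The endothelial sum overlaps between the groups, between 25.2 and 49.0 CPM, while the pan-leukocyte and neutrophil sums are higher and the marrow stroma sum is lower in both Fgfr3CE-E12.5 libraries. The marrow stroma sum is mostly *Cxcl12*.

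The genes whose levels over the 5 libraries were most like those of *Cdh5* were not endothelial genes of the lists. Ranked by the root mean square difference of centred log2 CPM among 13215 other genes, the closest were *Adam22* (0.245), *Fam205a2* (0.251), *Dlec1* (0.255), *Crygs* (0.263) and *Nrk* (0.288). A pseudocount of 0.5 CPM was added before the logarithm, and the place of *Fam205a2*, with 60, 27 and 0 counts in Dlx5CE-E12.5 replicates 1 to 3 and 0 in both Fgfr3CE-E12.5 libraries, depends on it. All 5 had their highest level in Dlx5CE-E12.5 replicate 1, as *Cdh5* did, which follows from picking them by likeness to it. *Adam22* was at 5.90, 4.10 and 2.27 CPM against 1.30 and 1.51 CPM. Among the 10 genes the closest to *Cdh5* was *Flt1*, at 0.42, followed by *Eng* at 0.588, and the farthest was *Tie1*, at 1.47. With 5 libraries, this likeness is a description only.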

How the data were processed

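RNA-seq counts were measured in 5 libraries of sorted cells pooled from mice of one genotype. Per the labels, the authors' processing notes name TopHat2 2.0.13, Bowtie2 2.2.1, HTSeq and mm10, and the deposited counts are reads per Ensembl gene without normalization. The strand setting is not given in the sources used here. The deposited normalized and rlog tables were not used. According to the methods, Dlx5CE-E12.5 libraries were read as 150-base pairs on a NovaSeq and Fgfr3CE-E12.5 libraries as single 50-base reads on a HiSeq, while the series' text names the HiSeq for all, so sequencing and lineage cannot be told apart.

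Total counts were 22035650 to 32563758 in Dlx5CE-E12.5 and 56355203 to 58166285 in Fgfr3CE-E12.5 libraries, where 3 counts equal 0.0473 to 0.141 CPM. No 2 libraries of the same group were alike within sampling noise. Symbols, gene types and coordinates came from GENCODE M21 on GRCm38 (29965 identifiers matched, 76 not). Between 0% and 1.54% of the 50-base windows of each endothelial gene's transcripts occur in another gene.

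Counts of protein-coding genes and reporters were fitted in edgeR 4.0.16 (R 4.3.3) with TMM and the quasi-likelihood test, Benjamini-Hochberg adjustment over all genes tested, and no covariates, over genes that reached a CPM of 10 in 2 or more libraries, or a CPM of 1 for genes below that. Standard errors were taken as the log2 fold change over the root of F. p-values measure the spread between these pools. The fit was tested on simulated data. Named were all 10 genes, up to 3 of the most abundant genes of a list, genes tied to the 10 genes as ligand, receptor or junction protein, groups of 5 or fewer called genes, and the profiles nearest to *Cdh5*. One gene of a marker list is not reported here. The genes and lists were chosen with earlier results of these data known, so the counts of list members carry no test of the lists. Alternatives were other scalings, DESeq2 1.42.0, edgeR's exact test and glmTreat, other filters and features, the replicate number as a block, trends on GC content and transcript length removed, and each library left out.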

Additional observations from a re-analysis of the deposited data

How the results depend on the processing

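*Eng* kept its call under all alternatives but the test for a change above 2-fold, which called 0 of the 10 genes, and its direction under all. *Kdr*, *Flt1*, *Tie1* and *Esam* kept their directions and were called under none. Across fits that each left out 1 library, 1029 to 1465 genes were higher in Dlx5CE-E12.5 cells and 997 to 1680 in Fgfr3CE-E12.5 cells. Endothelial genes at a CPM of 10 numbered 1 to 1 and 0 to 1 in these directions, and the genes under that filter numbered 0 to 1 higher in Dlx5CE-E12.5 cells. The summed level of the 10 genes (log2, Fgfr3CE-E12.5 over Dlx5CE-E12.5, -0.94) ran from -1.06 to -0.82. It was -0.73 with library size alone, -0.72 relative to counts outside the blood cell lists (without TMM), and 0.24 without *Eng*.

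*Cdh5* was not called with library size alone (0 genes called under the filter, adjusted p = 0.0667, edgeR), with no filter (0 genes, adjusted p = 0.0518) or with glmTreat (0 genes, adjusted p = 0.212). Library size alone called 1 gene, *Pecam1*, higher in Fgfr3CE-E12.5 cells (log2 fold change 1.15), and moved the median of all genes tested from 0.01 to 0.22. A filter at a CPM of 1 for all genes called 2 higher in Dlx5CE-E12.5 cells, *Eng* and *Cdh5*. Removal of a trend on transcript length called 1 more gene, *Vwf*, at 1.51 (adjusted p = 0.035, edgeR). With no fold change threshold, 2517 and 2363 of all genes were higher in Fgfr3CE-E12.5 and Dlx5CE-E12.5 cells, and 1011 and 659 with glmTreat. *Pecam1* had an adjusted p of 0.0186 with edgeR's exact test and 0.0214 with DESeq2, with a log2 fold change still under 1. With 1 library left out, *Tek* ran from -0.74 (without Fgfr3CE-E12.5 replicate 3) to 0.73, and *Emcn* from -0.50 to 0.092 (without Dlx5CE-E12.5 replicate 1). Where no value above shows a cause, the cause was not tested.

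The replicate numbers shared by the groups mark different pools of mice, and libraries of the same number correlated in their deviations at 0.12 and -0.05 over 2 pairs. With 2 Fgfr3CE-E12.5 libraries, their deviations from the group mean are mirror images. Dlx5CE-E12.5 replicate 2 thus gave -0.124 with Fgfr3CE-E12.5 replicate 3, and such values cannot show whether the numbers pair. With the number as a replicate block, *Pecam1* was called at 1.29 (1 gene higher in Fgfr3CE-E12.5 cells). *Cdh5* was not called (0 genes under the filter), *Tek* was -0.056 and *Emcn* 0.092. Dlx5CE-E12.5 replicate 1 has no Fgfr3CE-E12.5 library of its number, so the blocked fit draws no lineage difference from it. The fit without that library gave nearly the same values for *Pecam1* (1.29) and *Emcn* (0.092). *Tek* (0.108, against -0.056 with the block) and *Tie1* (1.60, against 2.13 with the block) differed more. Both fits draw the lineage difference from the same libraries, so the block is not a separate check. Depth limits the genes under 10 CPM, of which *Tie1* had 9 counts in 1 library.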
